A study of Saccharomyces cerevisiae with 90 samples.

Results

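Wild-type Saccharomyces cerevisiae grown for 6 h on SLAD agar was compared with wild-type cells grown for 6 h in SLAD liquid. The members were chosen by their labels alone, 3 arrays of each group (replicates A to C), which makes 6 of the 90 Affymetrix arrays of the series. The series as a whole asks how contact with a solid substrate changes yeast gene expression, and its other arrays cover further media, times and strains with altered MAP-kinase pathway genes. All 4 other groups used here were wild-type at 6 h as well, on SD agar, in SD liquid, on SG agar and in SG liquid, with 3 arrays each. The labels give the media only as abbreviations. By common usage SLAD is a synthetic glucose medium with little ammonium, SD a synthetic glucose medium and SG a synthetic galactose medium. Strain background, ploidy, culture density and agar content were not given in the sources.

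SLAD agar is the classic medium on which yeast short of nitrogen forms filaments and stays attached to the surface. Attachment rests on the cell-wall mucin Flo11, whose gene is controlled by the filamentation MAP-kinase cascade ending in Ste12 and Tec1, by the Ras and cAMP pathway through protein kinase A, and by several further transcription factors. Low nitrogen also frees the GATA activators Gln3 and Gat1, which turn on permeases and enzymes for poor nitrogen sources. Cells that slow their growth turn on stress genes under Msn2 and Msn4, lay down glycogen and trehalose, and lower the synthesis of ribosomes.

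Values are log2 signals per probe set, made with RMA by the authors, and 5449 genes were tested. Levels are given per array or as mean ± SD (n = 3 arrays), and changes as SLAD agar minus SLAD liquid on the log2 scale ± SE from limma, with p values adjusted by Benjamini-Hochberg over all 5449 genes. A gene was called higher or lower on agar at an adjusted p under 0.05 and a change of at least 2-fold, and "rose" and "fell" are used only of genes so called. Arrays of the SLAD agar group differed from each other by 0.142 to 0.158 (root mean square log2 difference over the tested genes) and those of the SLAD liquid group by 0.152 to 0.265. Liquid array A was the one farther from the other 2 of its group (0.225 and 0.265). The 2 group means differed by 1.09, more than 4 times as much as any pair of arrays within either group.

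The labelled genotype was checked against the pathway genes that other strains of the series lack. TEC1, MSB2 and FLO11 were all well above the background limit on the 6 arrays, which was 5.88 to 6.15 (the 95th percentile of probe sets naming genes of other organisms). URA3, a marker gene deleted in many laboratory strains, was below that limit on all 6 arrays, and HIS3 on 4 of 6. Of the alpha-cell markers MF(ALPHA)1 was below the limit on all 6 arrays. The a-cell markers STE2 (9.21 ± 0.07 and 9.44 ± 0.24), MFA1 and MFA2 were above it. STE3 and SAG1, alpha-cell genes as well, were also above the limit. The labels do not give the mating type. Whether replicates were separate cultures is not stated either. The SEs and p values rest on 1 spread per gene, pooled within the 29 groups of all 90 arrays. That spread may be technical, and may be smaller or larger than the spread among the 6 SLAD arrays. In a culture, fewer cells of a type and less RNA per cell cannot be told apart.

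A large part of the transcriptome differed between substrates in low-ammonium medium. On SLAD agar 613 genes (11.2% of those tested) were called higher and 697 (12.8%) lower than in SLAD liquid. All counts of list members that rose or fell are to be read beside these shares. Genes that take up and reduce sulfate, the adhesin gene FLO11, genes of nucleotide and serine synthesis, mitochondrial ribosomal protein genes and mitotic genes were higher on agar. Genes of glycogen and trehalose metabolism, stress and stationary-phase genes, autophagy genes, genes for the use of proline, GABA and arginine, and many genes of gluconeogenesis and acetate use were lower. Falls were larger than rises: 48 genes were at least 16-fold lower on agar and 6 at least 16-fold higher, and at 4-fold the numbers were 251 and 106. Without a fold threshold, 2141 genes (39.3%) were higher and 1830 (33.6%) lower at an adjusted p under 0.05. For 4433 genes (81.4%) the 3 agar and 3 liquid arrays did not overlap, and this held for every called gene. The median change of all genes was 0.07 and the median SD of a gene within the groups was 0.095.

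**Figure D1:**
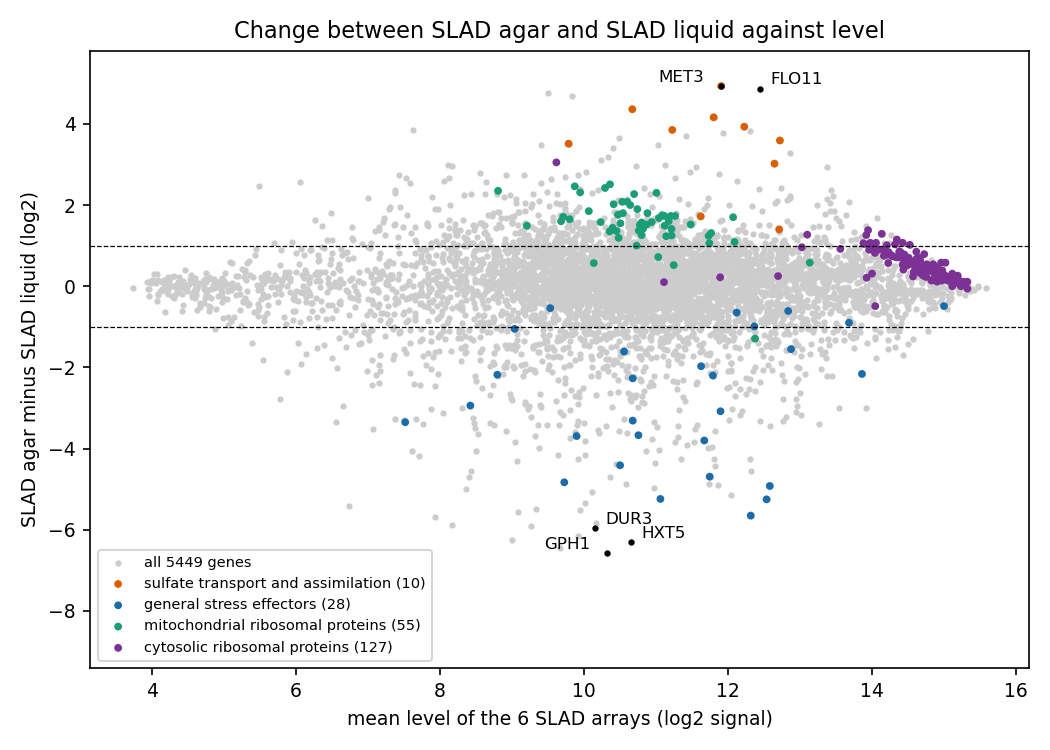
Change between SLAD agar and SLAD liquid (log2, vertical axis) against the mean level of the 6 SLAD arrays (log2 signal, horizontal axis), 1 point a gene, with 4 gene lists coloured and dashed lines at a 2-fold change. Sulfate assimilation genes lie above the upper line, most general stress genes below the lower one, and mitochondrial ribosomal protein genes mostly above the upper line. Cytosolic ribosomal protein genes lie close to the top of the signal range, where the range leaves little room for a rise.

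The largest rise was that of MET3, ATP sulfurylase, the first enzyme of sulfate reduction. Its level was 14.31, 14.48 and 14.33 on the agar arrays and 9.49, 9.37 and 9.47 in liquid, a rise of 4.93 ± 0.10 (30.5-fold, adjusted p = 2.59e-48). The second was FLO11, at 14.93, 14.86 and 14.86 on agar and 9.85, 9.90 and 10.29 in liquid (4.87 ± 0.29, adjusted p = 1.48e-23). For both genes every agar array lay more than 4 log2 units above every liquid array. SNO1, a subunit of the enzyme that makes vitamin B6, followed with 4.75 ± 0.31. After it came MHT1, which makes methionine from S-methylmethionine (4.68 ± 0.13), the sulfate permease genes SUL2 and SUL1, and the sulfate reduction genes MET14 and MET16. The list of the 15 largest rises was completed by UTR2, a cell wall chitin transglycosylase (3.82 ± 0.09), BDS1, a sulfatase (3.77 ± 0.18), SER3 of serine synthesis, MET5, MET8, PDH1, a mitochondrial protein linked to propionate use (3.49 ± 0.14), and SFG1, a regulator of pseudohyphal growth on surfaces. Of these 15 genes 9 belong to the lists of sulfur genes described below.

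The largest fall was that of GPH1, glycogen phosphorylase. Its level was 6.96, 7.28 and 6.87 on agar and 13.63, 13.59 and 13.58 in liquid, 94.7-fold lower on agar (-6.57 ± 0.40, adjusted p = 4.22e-23). YRO2, a membrane protein of the Hsp30 family, fell (-6.44 ± 0.54). HXT5, a hexose transporter known from slowly growing cells, was at 7.45, 7.75 and 7.29 on agar and 13.80, 13.79 and 13.81 in liquid (-6.30 ± 0.23). LEE1, a zinc-finger protein, FMP16, a mitochondrial protein, and DUR3, the urea permease, were lower (-6.26, -6.16 and -5.96). PHM8, a phosphatase induced at low phosphate, MOH1, the stress gene DDR2, GPG1, the transketolase isozyme TKL2, POT1, the peroxisomal thiolase, and SPG4 fell (-5.33 to -5.91). ISF1 and ATG39, the receptor that brings pieces of the nucleus to autophagy, were below background on all 3 agar arrays. ISF1 was at least 32.3-fold lower on agar than in liquid and ATG39 at least 25.7-fold lower, against the background limit.

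**Figure D2:**
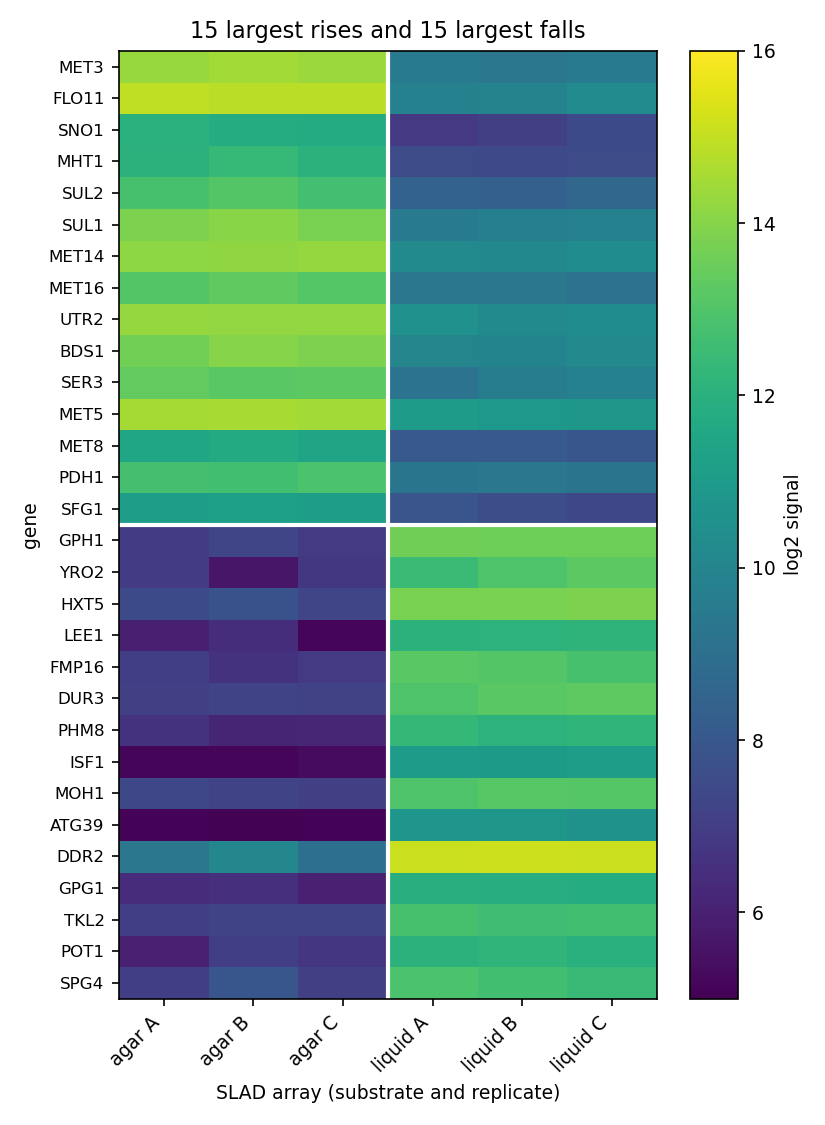
Level (log2 signal, colour scale) of the 15 genes with the largest rise (upper block) and the 15 with the largest fall (lower block) on each of the 6 SLAD arrays, agar arrays on the left and liquid arrays on the right. Within a substrate the 3 arrays are alike in each row, and every row changes colour at the white line between substrates.

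FLO11 was the only 1 of the 6 measured adhesin genes of its list that rose. FLO1, FLO9 and FLO10, flocculation and adhesion genes, fell (-1.39, -1.28 and -1.39), and were named after their values were seen. FLO1 was below background on all 3 agar arrays and on 1 liquid array, and the FLO9 probe set shares probes with other sequences. FIG2 and AGA1, mating adhesins, did not pass the test (-0.17 and -0.05). On agar FLO11 lay at the top of the signal range, where the 99th percentile of tested genes was 15.09 to 15.14, so its rise may be larger than measured.

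In the filamentation MAP-kinase pathway none of 17 measured genes rose and 2 fell, where 11.2% of all genes rose and 12.8% fell. The repressor DIG2 (0.98) was just under the threshold. It was called under quantile normalization (1.07) and without agar array A or liquid array A (1.24). STE11, the kinase at the head of the cascade, was at 9.59, 9.58 and 9.71 on agar and 11.14, 11.11 and 11.14 in liquid (-1.50 ± 0.07, adjusted p = 5.97e-30). MSG5, a phosphatase that acts on the MAP kinases, fell (-1.35 ± 0.09). The MAP kinase KSS1, the mucin MSB2 and the transcription factor STE12 were higher by 0.94, 0.78 and 0.75, which passed the test but not the 2-fold threshold. TEC1, the partner of Ste12, was 10.17 ± 0.10 on agar and 10.24 ± 0.05 in liquid (-0.07 ± 0.13, adjusted p = 0.600). Changes of STE7, STE20 and STE50, further kinases and the adaptor of the cascade, lay between -0.13 and 0.09 and did not pass the test.

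Of 11 measured genes listed as targets of Tec1, 2 rose and 2 fell, where 11.2% of all genes rose and 12.8% fell. The G1 cyclin CLN1 rose by 1.30 ± 0.14. TIP1, a cell wall mannoprotein, and DDR48, a stress protein, fell (-2.96 ± 0.35 and -2.88 ± 0.25). PGU1, the pectinase often read as the output of this pathway, was at 5.91, 6.21 and 6.10 on agar and 6.53, 6.67 and 6.76 in liquid, close to the background limit (-0.58 ± 0.19). SVS1, a cell wall gene of the list, did not pass the test (0.01 ± 0.12).

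Of 17 transcription factors of filamentous growth 1 rose and 6 fell, where 11.2% of all genes rose and 12.8% fell, and 10 were not called. SFG1 was at 11.12, 11.19 and 11.12 on agar and 7.92, 7.63 and 7.40 in liquid (3.49 ± 0.15, adjusted p = 1.35e-30). TOS8, a homeodomain protein, fell (-3.83 ± 0.22) and HMS1, a helix-loop-helix protein (-2.21 ± 0.14). MIT1, PHD1, RIM101 and the repressor NRG1 fell (-2.09, -1.16, -1.33 and -1.07). FLO8, which activates FLO11 under protein kinase A, was 10.24 ± 0.09 and 10.03 ± 0.09, a difference of 0.21 ± 0.07.

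In the Ras and cAMP pathway 2 of 15 genes rose and 6 fell, where 11.2% of all genes rose and 12.8% fell. TPK3, a catalytic subunit of protein kinase A, was at 10.45, 10.39 and 10.43 on agar and 8.89, 8.63 and 8.64 in liquid (1.70 ± 0.17), and RAS2, the GTPase that activates adenylate cyclase, rose by 1.46 ± 0.14. The cAMP phosphodiesterase PDE2 fell (-1.76 ± 0.17), the inhibitory subunit BCY1 (-1.45 ± 0.10), adenylate cyclase CYR1 (-1.17 ± 0.10) and IRA1, which turns Ras off (-1.10). The G protein subunit GPA2 and its partner GPB2 fell (-1.09 and -1.13). TPK2, the catalytic subunit best known for FLO11 control, was lower by 0.75, under the 2-fold threshold.

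Many genes of sulfur uptake and use rose on agar. All 10 measured genes of sulfate transport and assimilation rose, where 11.2% of all genes did, with a median change of 3.72 against 0.07 for all genes. SUL1, a high-affinity sulfate permease, was at 13.82, 14.03 and 13.78 on agar and 9.58, 9.76 and 9.82 in liquid (4.16 ± 0.19). SUL2, the second permease, was at 12.78, 13.07 and 12.71 and at 8.47, 8.39 and 8.62 (4.36 ± 0.19). Both substrates were about 4 log2 units apart with no overlap. Among the enzymes, MET14, adenylylsulfate kinase, rose by 3.93 ± 0.13, MET16, which reduces the activated sulfate, by 3.85 ± 0.19, and the 2 subunits of sulfite reductase, MET5 and MET10, by 3.59 ± 0.07 and 3.02 ± 0.08. MET8 and MET1, which make the siroheme of that reductase, rose by 3.51 and 1.72, and MET22, which removes the nucleotide by-product, by 1.40.

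Downstream of sulfide 10 of 21 genes of methionine, cysteine and S-adenosylmethionine synthesis rose and 1 fell. MET17, which joins sulfide to O-acetylhomoserine, was at 14.83, 14.88 and 14.81 on agar and 11.84, 12.02 and 11.87 in liquid (2.93 ± 0.04, adjusted p = 1.64e-57). MET2, which makes O-acetylhomoserine, rose by 2.99 ± 0.19, STR3, cystathionine beta-lyase, by 2.68 ± 0.30, SAM4 by 2.40 ± 0.10 and CYS3, cystathionine gamma-lyase, by 1.85 ± 0.07. IRC7, a cysteine desulfhydrase, went the other way, from 13.00 ± 0.09 in liquid to 11.53 ± 0.05 on agar (-1.48 ± 0.25). The genes that feed the pathway with homoserine, HOM2, HOM3 and HOM6, were within 0.24 of no change.

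Permeases and salvage enzymes for sulfur compounds rose in 7 of 10 cases and none fell. YCT1, a cysteine transporter, was at 11.88, 12.42 and 12.01 on agar and 8.42, 8.79 and 8.89 in liquid (3.40 ± 0.24). The S-methylmethionine permease MMP1 and the methionine permease MUP1 rose by 2.76 ± 0.17 and 2.66 ± 0.30, and AGP3, SEO1 and SAM3 by 1.48, 1.45 and 1.05. JLP1, a sulfonate dioxygenase, did not pass the test (-0.10). Of 6 regulators 3 rose: MET32 and MET28, DNA-binding partners of the activator Met4, by 2.30 ± 0.28 and 1.55 ± 0.21, and CBF1 by 1.07 ± 0.15. MET4 itself was 9.92 ± 0.06 on agar and 10.21 ± 0.05 in liquid (-0.29 ± 0.16, adjusted p = 0.106), and MET31, the paralogue of MET32, was lower by 0.71.

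Nitrogen genes did not move as 1 group. MEP2, the high-affinity ammonium permease needed for filamentous growth, was at 14.80, 14.91 and 14.86 on agar and 15.27, 15.25 and 15.25 in liquid (-0.40 ± 0.17), near the top of the signal range on both substrates. Of 10 genes of ammonium transport and assimilation 1 rose and 2 fell. The low-affinity permease MEP3 rose by 1.14 ± 0.13. GDH2, which releases ammonium from glutamate, was at 10.92, 10.85 and 10.80 on agar and 14.34, 14.25 and 14.30 in liquid (-3.44 ± 0.25), and GDH3, a second NADP-dependent glutamate dehydrogenase, fell (-2.70 ± 0.18). The main assimilation enzymes GDH1 (0.29), GLN1 (-0.45) and GLT1, which did not pass the test, stayed within 2-fold.

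Among 10 measured genes for allantoin and urea 2 rose and 2 fell. DUR3 was at 7.09, 7.25 and 7.16 on agar and 12.96, 13.19 and 13.25 in liquid (-5.96 ± 0.18, 62.5-fold, adjusted p = 3.56e-39). DAL1 and DAL2, the first enzymes of allantoin breakdown, went the other way and rose by 1.98 ± 0.22 and 1.66 ± 0.27. DAL5, the allantoate permease, fell (-1.26 ± 0.45, adjusted p = 0.011). The other DAL genes neighbour each other in the order DAL1, DAL4, DAL2, DCG1, DAL7 and DAL3 (gene order from RefSeq, assembly R64), and along it the changes were 1.98, -0.65, 1.66, -0.21, -0.29 and 0.35, so that the 2 risers were separated by a gene that did not pass the test.

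Use of proline, GABA and arginine was lower on agar, with 6 of 8 genes falling, where 12.8% of all genes did, and a median change of -2.49. PUT4, the proline permease, was at 8.67, 8.51 and 8.26 on agar and 13.41, 13.46 and 13.49 in liquid (-4.97 ± 0.28). PUT1, proline oxidase, fell (-4.43 ± 0.29), UGA4, the GABA permease (-3.95 ± 0.34) and CAR2, ornithine transaminase (-2.69 ± 0.26). UGA1 and UGA2 of GABA breakdown fell (-2.29 and -2.27). Among 13 nitrogen regulators the repressor DAL80 fell (-2.84 ± 0.39), UGA3 (-1.63) and the activator GAT1 (-1.14 ± 0.20), while URE2, which holds Gln3 in the cytoplasm, rose, just past the threshold, and lost its call without liquid array C (0.92). GLN3 was 10.46 ± 0.09 and 10.45 ± 0.07 (0.02 ± 0.09, adjusted p = 0.875).

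Amino acid permeases were split, 6 of 25 rising and 8 falling, where 11.2% of all genes rose and 12.8% fell. The risers were the sulfur permeases MMP1, MUP1, AGP3 and SAM3, the tryptophan permease TAT2 (1.69 ± 0.20) and the glutamine permease GNP1 (1.47 ± 0.25). PTR2, the peptide transporter, was at 8.04, 8.16 and 8.12 on agar and 11.57, 11.98 and 12.22 in liquid (-3.82 ± 0.31). AGP1, a permease of broad range, fell (-2.54 ± 0.30), the general permease GAP1 (-1.55 ± 0.29), and ALP1, BAP2, DIP5, OPT2 and CAN1 (-1.12 to -2.12).

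Autophagy genes were lower on agar. Of 22 genes 15 fell and none rose, with a median change of -1.28. ATG8, the protein that is coupled to the growing membrane, was at 9.01, 9.08 and 9.20 on agar and 11.64, 11.21 and 11.04 in liquid (-2.20 ± 0.22). The initiating kinase ATG1 fell (-2.13 ± 0.15), ATG34, a receptor for vacuolar hydrolases (-3.41 ± 0.12), and ATG31, ATG33, ATG19 and ATG9 (-1.96 to -2.65). ATG12 was the member with the largest difference in the other direction (0.42 ± 0.17), under the threshold. In the vacuole 8 of 10 hydrolases and their inhibitors fell, among them the mannosidase AMS1 (-2.98 ± 0.20), proteinase B, PRB1 (-2.22 ± 0.13), and proteinase A, PEP4 (-1.08 ± 0.09). None of the 10 rose.

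Genes of storage carbohydrates and of stress were lower on agar. Of 17 genes of glycogen metabolism 12 fell and none rose (median -1.54). Genes of both directions of the pathway were among them: glycogen phosphorylase GPH1, the debranching enzyme GDB1 (-1.99 ± 0.15) and glucoamylase SGA1 (-3.37 ± 0.15) break glycogen down, while glycogen synthase GSY2 (-2.47 ± 0.28) and the branching enzyme GLC3 (-1.54) build it. GAC1, which directs a phosphatase to glycogen synthase, was at 5.95, 6.14 and 6.02 on agar, at the background limit, and 10.43, 10.92 and 10.89 in liquid (-4.71 ± 0.26). Of 11 trehalose genes 8 fell and none rose, again on both sides, with TPS1 (-1.55 ± 0.17), TPS2 (-1.67) and TSL1 (-2.70 ± 0.38) of the synthase and the trehalases NTH1 (-2.07), NTH2 (-2.23) and ATH1 (-1.86). Phosphoglucomutase differed between its 2 genes, PGM2 falling (-3.31 ± 0.35) and PGM1 being higher by 0.93 ± 0.09.

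Of 28 general stress effectors 22 fell and none rose (median -2.61, range -5.65 to -0.49). HSP12, a small membrane-associated heat shock protein, was at 9.94, 10.53 and 9.90 on agar and 15.13, 15.06 and 14.94 in liquid (-4.92 ± 0.37). YGP1, a secreted glycoprotein, was at 9.69, 10.29 and 9.75 on agar and 15.17, 15.13 and 15.17 in liquid (-5.25 ± 0.43). These liquid values lie at the top of the signal range, so the falls may be larger than measured. MSC1, GRE1, GAD1, the peroxiredoxin PRX1, DCS2 and cytosolic catalase CTT1 fell (-3.67 to -5.24). SSA4, an inducible chaperone, did not pass the test (-0.54 ± 0.43, adjusted p = 0.256).

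Genes known for stationary phase fell in 14 of 17 cases, beside 2 that rose. The marker genes SPG1, SPG3, SPG4, SPG5, SPI1 and SIP18 all fell (-1.12 to -5.33). SIP18 was at 5.79, 6.23 and 5.59 on agar, at or below background, and 11.01, 10.74 and 10.83 in liquid (-4.99 ± 0.32). SNO1 and SNZ1, of vitamin B6 synthesis and also listed for stationary phase, rose, SNO1 by 4.75 ± 0.31. The mean level over the 17 genes was 8.84 to 8.92 on the agar arrays and 11.51 to 11.58 on the liquid arrays. The part of growth phase in the other falls was not tested.

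Regulators of these programmes fell as well in 9 of 22 cases, and none rose. Of the 15 left without the dimmest 25% of genes 3 fell. MSN4 was at 10.04, 9.99 and 10.04 on agar and 12.24, 12.30 and 12.20 in liquid (-2.22 ± 0.14), while its paralogue MSN2 was 11.90 ± 0.13 and 12.05 ± 0.20 (-0.16 ± 0.09, adjusted p = 0.121). The quiescence kinase RIM15 fell (-1.35 ± 0.09), and the carbon regulators MIG2, CAT8, USV1 and ADR1 (-2.49, -2.43, -2.33 and -2.07). Chaperones of the heat shock response were called in both directions, 3 of 22 rising and 3 falling. These counts are close to the shares of all genes, 11.2% and 12.8%. HSP10 and SSC1 of mitochondrial protein folding rose by 1.49 ± 0.07 and 1.12 ± 0.05 and CPR6 by 1.16 ± 0.17, and SSA1, the mitochondrial disaggregase HSP78 and SIS1 fell (-2.28, -1.80 and -1.08).

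**Figure D3:**
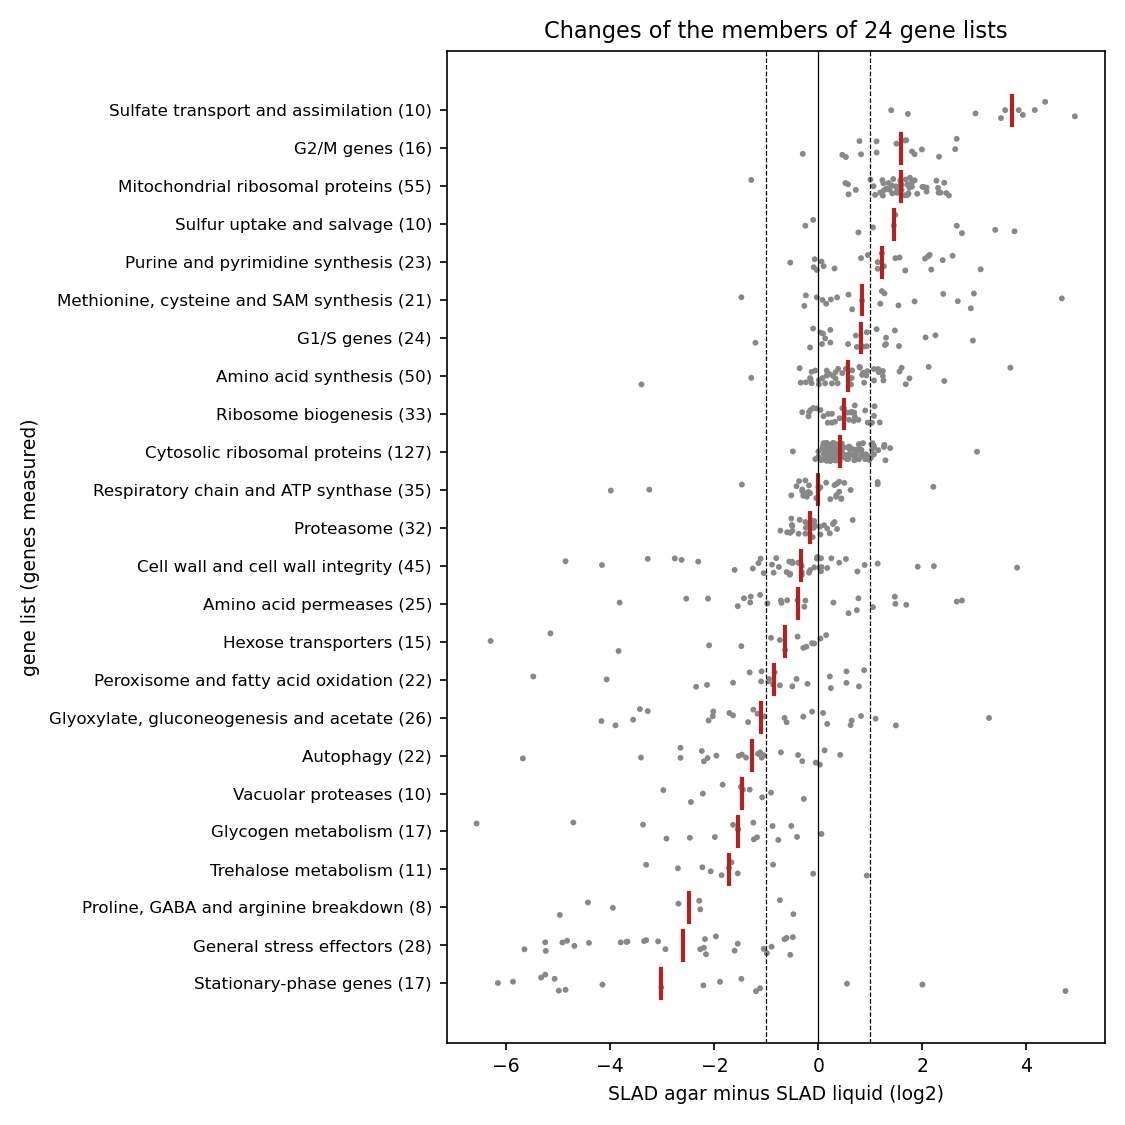
Change between SLAD agar and SLAD liquid (log2, horizontal axis) of every measured member of 24 gene lists (grey points, spread vertically only to be seen), with the median of each list as a red bar, dashed lines at a 2-fold change and the number of genes in brackets. Medians run from -3.02 for stationary-phase genes to 3.72 for sulfate transport and assimilation, against 0.07 for all genes tested.

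In carbon metabolism calls were mostly downward, for part of each list. Of 15 hexose transporters and sensors 5 fell and none rose. HXT4, of intermediate to high affinity, was at 10.15, 9.06 and 9.21 on agar and 14.50, 14.72 and 14.64 in liquid (-5.15 ± 0.48). HXT7, whose probe set shares probes with other sequences, fell (-3.84 ± 0.37) and the low-glucose sensor SNF3 (-1.48 ± 0.19). HXT1 and HXT3, the low-affinity transporters, were lower (-0.74 and -0.40), both near the top of the signal range. In glycolysis and fermentation 7 of 24 genes fell and none rose, led by hexokinase HXK1 (-4.69 ± 0.49), pyruvate decarboxylase PDC6 (-4.38 ± 0.15) and TDH1 (-2.78 ± 0.22).

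Genes of the glyoxylate cycle, gluconeogenesis and acetate use fell in 14 of 26 cases and rose in 3. Of the 17 left without the dimmest 25% of genes 5 fell and 3 rose. Malate synthase MLS1 was at 9.55, 9.36 and 9.54 on agar and 13.46, 13.37 and 13.32 in liquid (-3.90 ± 0.30). PCK1 and FBP1, the key enzymes of gluconeogenesis, fell (-3.43 ± 0.27 and -3.28 ± 0.30), IDP2 (-3.56 ± 0.15), and the succinate-fumarate carrier SFC1, below background on all agar arrays, was at least 13.1-fold lower. ALD6, the cytosolic acetaldehyde dehydrogenase, went the other way, from 11.50, 11.20 and 10.96 in liquid to 14.44, 14.53 and 14.52 on agar (3.28 ± 0.20), and DLD1, lactate dehydrogenase, and CRC1, the carnitine carrier, rose by 1.49 and 1.10. Of 22 genes of peroxisomes and fatty acid oxidation 8 fell, led by POT1 (-5.48 ± 0.23) and acyl-CoA oxidase POX1 (at least 11.8-fold, below background on agar), and none rose. Glycerol genes fell in 7 of 14 cases, with GPP2, glycerol phosphatase, from 14.42 ± 0.01 to 11.10 ± 0.14.

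Respiratory chain genes did not shift as a group, 3 of 35 genes rising and 3 falling. CYC1, cytochrome c of aerobic cells, was at 14.52, 14.58 and 14.56 on agar and 12.55, 12.31 and 12.20 in liquid (2.21 ± 0.06, adjusted p = 1.12e-40). CYC7 and COX5B, the isoforms known from low oxygen, fell (-1.47 ± 0.33 and -3.25 ± 0.26), and NDE2, an external NADH dehydrogenase (-3.99 ± 0.13). Of 17 genes set by oxygen and heme 8 fell and 1 rose. ANB1, the hypoxic form of translation factor eIF5A, was at 10.31, 10.16 and 10.06 on agar and 14.39, 14.38 and 14.51 in liquid (-4.26 ± 0.23), HEM13 of heme synthesis fell (-2.16 ± 0.17), and YHB1, flavohemoglobin, rose by 2.08 ± 0.05. The repressor ROX1 was higher by 0.51 ± 0.19, under the threshold. TCA cycle genes fell in 3 of 16 cases and none rose.

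Genes of the mitochondrial ribosome rose almost throughout. Of 55 mitochondrial ribosomal protein genes 50 rose and 1 fell, where 11.2% of all genes rose, with a median of 1.58. MRPL50 was at 11.61, 11.57 and 11.65 on agar and 9.32, 8.91 and 9.08 in liquid (2.51 ± 0.20) and MRPS8 rose by 2.46 ± 0.14 (both were named after their values were seen). MRP8 was the 1 that fell (-1.29 ± 0.15), a gene whose name carries the prefix and whose product is not an established ribosomal protein. Of 127 cytosolic ribosomal protein genes 14 rose (11.0%, close to the 11.2% of all genes) and none fell. Without a fold threshold 117 were higher and 2 lower. Their mean level was 14.80 on agar and 14.29 in liquid, at the top of the signal range, so their changes may be larger than measured. RPL41A rose by 3.05 ± 0.24, but its probe set shares probes with other sequences.

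Other parts of the translation machinery changed less than the mitochondrial ribosomal protein genes. Median changes were 0.49 for ribosome biogenesis, 0.42 for RNA polymerase I and III and 0.32 for translation factors and tRNA synthetases. Over all genes the median was 0.07, and 11.2% rose. Among 33 ribosome biogenesis genes 5 rose, NOP7, CBF5, NOP56, NOP4 and EBP2, by at most 1.18, and none fell. Without agar array A or without liquid array B 3 of them were called. RNA polymerase I and III genes rose in 4 of 23 cases, led by RPC31 (1.61 ± 0.20), and RRN7 fell (-1.12 ± 0.18). Of 35 translation factors and tRNA synthetases only TIF11, eIF1A, was called (1.60 ± 0.17).

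Genes of mitosis were higher on agar. Of 16 G2/M genes 11 rose and none fell (median 1.59). The mitotic cyclin CLB2 was at 10.63, 10.70 and 10.66 on agar and 9.39, 8.63 and 8.41 in liquid (1.85 ± 0.15, adjusted p = 1.06e-17). SWI5, a transcription factor of mitotic exit, was at 9.24, 9.51 and 9.63 on agar and 7.59, 6.60 and 6.21 in liquid (2.66 ± 0.20). For both genes liquid array A was the highest of the liquid arrays and still below every agar array. Their SEs and the p value rest on a spread pooled over all groups of the series, which was smaller than the scatter of these liquid arrays. BUD4, AIM20, CDC20, CLB1 and the polo kinase CDC5 rose by 1.12 to 2.63. DBF2 went slightly the other way (-0.30 ± 0.09). The mean level over the 16 genes was 10.47 to 10.53 on agar and 8.82 to 9.46 in liquid, and without liquid array A 12 rose.

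In other phases of the cell cycle a smaller part of each list was called than among the G2/M genes. Of 24 G1/S genes 9 rose and 1 fell (median 0.81), where 11.2% of all genes rose and 12.8% fell (median 0.07). The S-phase cyclin CLB6 was at 9.45, 9.70 and 9.81 on agar and 6.75, 6.64 and 6.66 in liquid (2.97 ± 0.20), the cohesin subunit MCD1 rose by 2.25 ± 0.20, the G1 cyclin CLN2 by 2.06 ± 0.14 and CDC45 of replication by 1.55 ± 0.21. CLN3, the cyclin that starts the cycle, fell from 13.10 ± 0.10 in liquid to 11.89 ± 0.07 on agar (-1.21 ± 0.22). Of 19 genes of mitotic exit and cell separation 5 rose and 1 fell (median 0.48). The largest rises were those of the wall protein PIR1 (2.22 ± 0.10), CDC6 (1.61 ± 0.17) and DSE3 (1.54 ± 0.13). No core histone gene of 9 passed 2-fold, and 6 were higher and 1 lower without it.

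The cell wall list held some of the largest rises and falls. Of its 45 genes 4 rose and 11 fell. UTR2 was at 14.24, 14.20 and 14.20 on agar and 10.57, 10.27 and 10.35 in liquid. PIR1 and PIR3, both wall proteins of the PIR family, went in opposite directions, PIR3 falling (-4.16 ± 0.37). SPI1, a wall protein of stationary phase, fell (-4.86 ± 0.34), the inducible glucan synthase GSC2 (-2.63 ± 0.18) and the aspartyl protease YPS3 (-2.76 ± 0.27). DAN1, a mannoprotein of anaerobic cells, was below background on agar and at least 7.68-fold lower. SLT2, the MAP kinase of cell wall integrity, was 11.35 ± 0.02 and 11.29 ± 0.05 (adjusted p = 0.752).

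Some mating genes were called and no sporulation gene was. Of 22 pheromone response genes 1 rose and 3 fell, where 11.2% of all genes rose and 12.8% fell. The risen gene was PRM1 (1.06). PRM4 and PRM8 fell (-1.87 and -1.83), as did FUS1, which was below background on agar and lost its call without liquid array A (-0.87). MFA1, an a-factor gene, fell from 9.17 ± 0.39 to 7.55 ± 0.17, and the a-factor transporter STE6 and the alpha-agglutinin SAG1 fell (-1.05 and -1.35). None of 14 sporulation genes was called, and their mean level was 6.07 to 6.10 on agar and 6.03 to 6.11 in liquid, about the background limit.

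Biosynthesis of nucleotides and of some amino acids was higher on agar. Of 23 purine and pyrimidine genes 14 rose and none fell, where 11.2% of all genes rose (median 1.22). ADE4, which commits phosphoribosyl pyrophosphate to purines, was at 13.44, 13.42 and 13.41 on agar and 10.88, 10.84 and 10.80 in liquid (2.58 ± 0.10). ADE8, ADE1, ADE13, ADE2 and ADE17 rose by 2.05 to 2.39, and MTD1 and GCV1, which supply one-carbon units, by 3.12 ± 0.21 and 1.56 ± 0.18. Genes of the guanine branch did not share this, with IMD3, IMD4 and GUA1 between -0.09 and 0.06, near the top of the signal range. ADE16, the paralogue of ADE17, was lower by 0.54.

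Of 50 amino acid synthesis genes outside the sulfur pathway 14 rose and 2 fell (median 0.57). The serine branch led: SER3 was at 13.35, 13.20 and 13.22 on agar and 9.21, 9.67 and 9.82 in liquid (3.69 ± 0.12), its paralogue SER33 rose by 2.12 ± 0.09, SER1 by 2.42 ± 0.07, SER2 by 1.56 and the serine hydroxymethyltransferase SHM2 by 1.68. The lysine genes LYS20, LYS12, LYS1, LYS9 and LYS2 rose by 1.07 to 1.75. ARO9, an aromatic aminotransferase that breaks amino acids down, fell (-3.40 ± 0.17) and threonine aldolase GLY1 (-1.29 ± 0.12). GCN4, the activator of amino acid synthesis, was lower by 0.34 ± 0.03, at the top of the signal range.

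Some metal and phosphate genes fell on agar, and most members of these lists were not called. Of 24 iron genes 9 fell and 1 rose. FIT2, a wall protein that holds siderophores, was at 8.73, 8.60 and 9.16 on agar and 12.50, 13.02 and 13.12 in liquid (-4.05 ± 0.47), and the siderophore carriers ARN2 and ARN1 fell (-3.72 ± 0.33 and -3.32 ± 0.27). FRE4, a ferric reductase, rose by 2.26 ± 0.30. Of 12 zinc genes 5 fell, led by the high-affinity transporter ZRT1, at 9.59, 9.23 and 9.44 on agar and 14.32, 14.28 and 14.34 in liquid (-4.89 ± 0.27), and none rose. The regulator ZAP1 did not pass the test (-0.11 ± 0.10). Of 18 phosphate genes 5 fell and none rose, but PHO84, the main phosphate transporter of the regulon, was within 2-fold (-0.85 ± 0.30).

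Ergosterol and proteasome genes were called in few cases, and vitamin genes in both directions. Of 24 ergosterol genes only ERG3 was called (-1.10 ± 0.08). Of 21 genes of fatty acid and phospholipid synthesis 4 rose and none fell (median 0.36), where 11.2% of all genes rose (median 0.07). The risers were INO2, PSD1, ITR1 and ITR2, by 1.01 to 1.49. Of 21 vitamin and cofactor genes 5 rose and 3 fell. The thiamine genes THI73, THI7 and THI6 fell (-2.82, -2.57 and -1.28), while beside SNO1 and SNZ1 the genes BNA1 and BNA4 of NAD synthesis and BIO2 of biotin synthesis rose by 1.52, 1.13 and 1.29. No proteasome gene of 32 was called, with changes between -0.73 and 0.66.

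The agar effect in SLAD was then set against the agar effect in SD, which has other arrays throughout. The test of the difference called the effect higher in SLAD for 408 genes (7.49%) and lower for 547 (10%). For FLO11 it did not pass: the agar effect was 4.87 in SLAD and 4.40 in SD, a difference of 0.47 ± 0.41 (adjusted p = 0.355), with both agar levels at the top of the signal range. The interval of about 2 SE around it leaves room for a difference of more than 2-fold. The sulfur genes differed most upward. SUL2 changed by 4.36 in SLAD and -1.10 in SD (difference 5.46 ± 0.27), MUP1 by 2.66 and -2.77 (5.43 ± 0.43), MHT1 by 4.68 and -0.39 (5.07 ± 0.19), MET3 by 4.93 and 0.24 (4.69 ± 0.15) and STR3 by 2.68 and -1.58 (4.26 ± 0.42). Downward the genes with the largest fitted differences included FMP16 (-6.16 against 0.26), SPG4 (-5.33 against 0.23) and GPM2 (-5.07 against 0.49). ISF1 and LEE1 were among them as well, but their place in the order rests on values below background. ISF1, at least 32.3-fold lower on agar in SLAD, was below background in both SD groups, as was LEE1, which was also below it on 2 of the 3 SLAD agar arrays.

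By list, the difference from SD was called higher for all 10 sulfate assimilation genes, 40 of 55 mitochondrial ribosomal protein genes, 16 of 23 nucleotide genes and 12 of 16 G2/M genes. It was called lower for 19 of 28 general stress effectors, 15 of 26 glyoxylate and acetate genes, 11 of 22 autophagy genes and 7 of 8 genes of proline, GABA and arginine use. Among iron genes 4 of 24 were lower and 1 higher, and FIT2 fell in both media (-4.05 and -2.69, difference -1.36 ± 0.66, adjusted p = 0.078). TOS8 also fell in both (-3.83 and -3.42), DAL80 in both (-2.84 and -2.70) and YPS3 in both (-2.76 and -3.01), each with a difference that did not pass the test. Over the 5449 genes the 2 effects correlated with r = 0.51, a description across genes, which are not independent. Their root mean squares were 1.09 in SLAD and 0.53 in SD. Of the genes called in SLAD 61 rises (9.95% of 613) and 101 falls (14.5% of 697) were called the same way in SD, which makes 64.9% of the 94 rises and 66.0% of the 153 falls in SD (1.73% and 2.81% of genes tested).

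**Figure D4:**
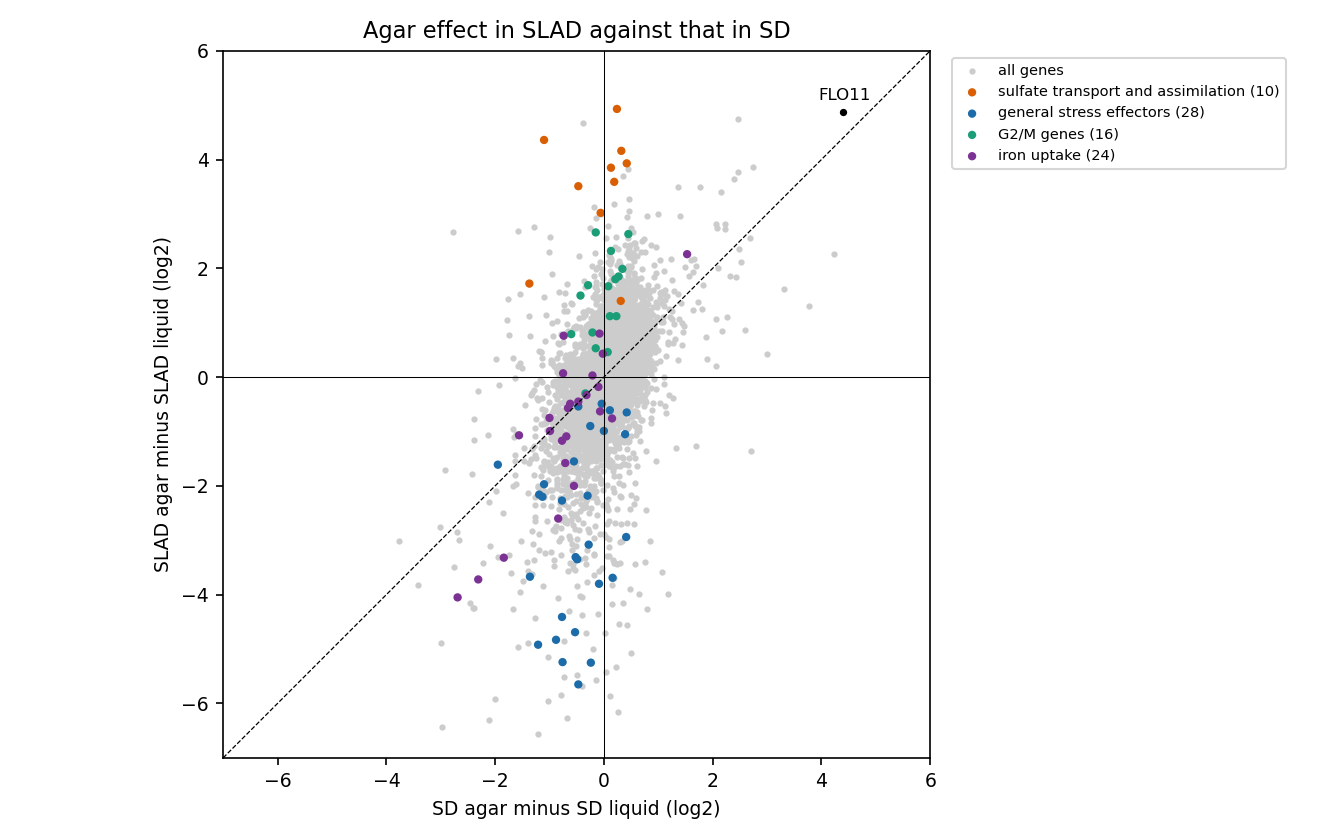
Agar effect in SLAD (SLAD agar minus SLAD liquid, log2, vertical axis) against the agar effect in SD (SD agar minus SD liquid, log2, horizontal axis), 1 point a gene, with 4 gene lists coloured and a dashed line where both are equal. FLO11 lies close to the line, at 4.87 and 4.40, while all 10 sulfate assimilation genes lie above the line and most general stress genes below it.

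Against the agar effect in galactose medium, the effect was higher in SLAD for 414 genes (7.60%) and lower for 460 (8.44%). The largest upward differences were those of SNO1 (4.75 in SLAD, -1.12 in SG), FLO11 (4.87 and 0.03), SUL2 (4.36 and -0.25), MET3 (4.93 and 0.43) and IZH4 (-0.59, which was not called, and -4.75). FLO11 in SG was near the top of the signal range on both substrates, so a rise could hardly be measured there. Downward PTR2 (-3.82 and 2.51), PUT4 (-4.97 and 0.67), POT1 (-5.48 and -0.12) and PUT1 (-4.43 and 0.66) led, together with SFC1, which has only a bound in SLAD (at least 13.1-fold lower on agar) and was 1.09 higher on agar in SG. Of the general stress effectors 7 of 28 were lower and 4 higher, and GPH1 fell in SG too (-4.62). Median agar effects in SG were -2.24 for these effectors, -2.34 for glycogen genes and -1.84 for trehalose genes. In SLAD the medians were -2.61, -1.54 and -1.72. The difference from SG was called higher for 9 of 10 sulfate assimilation genes and 44 of 55 mitochondrial ribosomal protein genes. Over all genes the 2 effects had r = 0.64, and SG liquid array C stood apart from its group (0.467 and 0.487 from the other 2). Of the 424 genes lower on agar in SG 295 (69.6%, and 42.3% of the 697 in SLAD) were called lower in SLAD, and of the 433 higher in SG 142 (32.8%, and 23.2% of 613). These SG counts were 7.95% and 7.78% of genes tested for higher and lower.

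The 2 glucose media were also compared within each substrate, in comparisons that share arrays with those above. On agar 20 genes (0.367%) were called higher in SLAD than in SD and 4 (0.0734%) lower, and the group means differed by 0.238. In liquid 516 genes (9.47%) were higher in SLAD and 394 (7.23%) lower, and the means differed by 0.930. MET3 was 0.08 ± 0.10 higher in SLAD than in SD on agar and 4.61 lower in liquid. GPH1 differed by 0.05 ± 0.40 on agar and was 5.41 higher in SLAD in liquid. DUR3 differed by -0.12 ± 0.18 on agar and 4.83 in liquid, and CLB2 by -0.24 ± 0.15 and -1.82. FLO11 differed by -0.40 in liquid, while on agar it was at the top of the signal range in both media (14.88 ± 0.04 in SLAD and 14.81 ± 0.06 in SD), where a difference could hardly be measured.

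The 24 genes that separated the media on agar included several of nitrogen and sulfur use. DAL80 (2.42 ± 0.39), DAL7 (2.18 ± 0.35), DAL5 (1.58 ± 0.45), DCG1, DAL3 and GAP1 (1.05 ± 0.29) were higher on SLAD agar than on SD agar. So were MUP1 (1.68 ± 0.30), MET32 (1.58 ± 0.28), MET1, YCT1 (1.31 ± 0.24), STR3 and SUL1 (1.04 ± 0.19). The 4 genes lower on SLAD agar were HSP30 (-1.92 ± 0.54), SPI1 (-1.50 ± 0.34), FRE4 (-1.27 ± 0.30) and GAT1 (-1.17 ± 0.20). These genes were named after their values were seen, and the count depended on single arrays, since 13 genes were higher without SLAD agar array B.

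**Figure D5:**
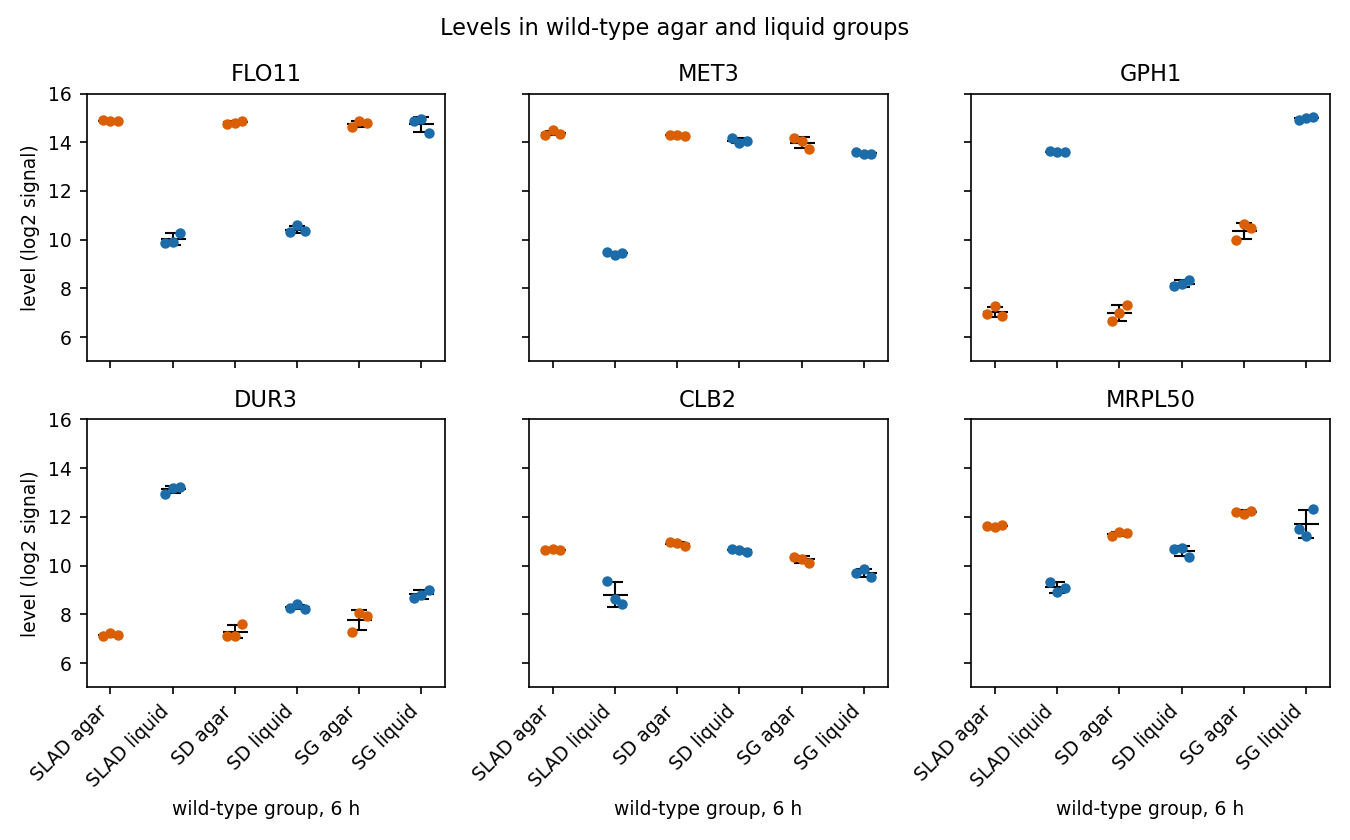
Level (log2 signal, vertical axis) of 6 genes in the wild-type agar (orange) and liquid (blue) groups in SLAD, SD and SG at 6 h (horizontal axis), with each of the 3 arrays as a point and mean ± SD as black bars. For MET3, GPH1, DUR3, CLB2 and MRPL50 the SLAD liquid group stands apart from SLAD agar and from both SD groups, and FLO11 is low in SLAD liquid and SD liquid alone.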

How the data were processed

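The authors deposited log2 signal values of 10928 probe sets on 90 arrays, made with RMA per the submitters' processing notes. No source states the RMA version, its settings or whether all arrays were normalized together. Per the labels' protocols, cells were frozen in acid phenol, RNA was cleaned with an RNeasy kit and labelled by Affymetrix IVT. Probe sets were named through the platform annotation and RefSeq gene IDs, of which 5498 named 1 S. cerevisiae gene, and the brightest was kept for 47 genes with several, leaving 5449. For 118 genes the probe set name marks probes that also match other sequences.

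A linear model holding 29 group means was fitted over the 90 arrays (limma 3.58.1, R 4.3.3, with 61 degrees of freedom from residuals and 2.88 from the prior) and tested on simulated data. All tests were 2-sided. Arrays give no molecule counts, so their number limits the precision. The number of 3 arrays a group would not let an exact permutation test of a single gene pass the threshold. Where a gene was below background on every array of a group, its fold change is a bound, the brighter group's mean against the array limits. The comparison, the 54 gene lists and the rule for named genes were chosen with earlier results of these data known, and 3 lists and the isozyme pairs of the closing section after their values were seen. Named genes were the 15 largest rises and falls with a standard name, 5 on each side of each difference between media, pathway and marker genes, and up to 10 members of a list with the largest changes. Other members of small counts, and ribosomal and adhesin genes, were named after their values were seen. Promoter motifs and sequences were not analysed here. The value of 1 gene is not reported here. Alternatives were quantile normalization, median centring, leaving out the dimmest 25% of genes, averaging of probe sets, dropping the fold threshold, a fit on the compared groups, the replicate letter as a block, and leaving out each array.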

Additional observations from a re-analysis of the deposited data

Results flagged for a closer look

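The agar effect differed between SLAD and SD by the test of the difference in 408 genes upward and 547 downward, and between SLAD and SG in 414 upward and 460 downward, which is why these results are listed for a closer look. Against SD, the genes taken by the rule differed by 5.46 (SUL2), 5.43 (MUP1), 5.07 (MHT1), 4.69 (MET3) and 4.26 (STR3) log2 upward and by -6.43 (FMP16), -5.97 (ISF1), -5.57 (LEE1), -5.56 (SPG4) and -5.56 (GPM2) downward. Against SG, the differences were 5.86 (SNO1), 4.84 (FLO11), 4.61 (SUL2), 4.50 (MET3) and 4.16 (IZH4) upward and -6.33 (PTR2), -5.64 (PUT4), -5.37 (POT1), -5.26 (SFC1) and -5.09 (PUT1) downward. ISF1 and SFC1 were below background on all 3 SLAD agar arrays, and ISF1 and LEE1 on every array of both SD groups, so their differences rest on values below background and fix no exact size or rank. FLO11 was near the top of the signal range on SLAD agar and in both SG groups, and its difference from SG has the same limit. Each effect is a difference of 3 arrays against 3, too few for a test of a single deviating value within a group.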

How the results depend on the processing

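The 613 rises and 697 falls between SLAD agar and SLAD liquid stayed within 1.5 times under quantile normalization (645 and 660), median centring (620 and 690), the mean of probe sets and a fit on the 2 groups. Leaving out 1 array at a time gave 575 to 694 rises and 679 to 711 falls for this comparison, 392 to 450 and 534 to 567 for the difference from SD, 366 to 479 and 447 to 487 for the difference from SG, 503 to 542 and 386 to 417 for SLAD against SD in liquid, and 13 to 22 and 3 to 7 for SLAD against SD on agar. In the last, 13 were higher without SLAD agar array B and 7 lower without SD agar array A. Without a fold threshold the counts were 2141 and 1830, 1341 and 1455, 1421 and 1493, 1813 and 1643, and 49 and 48 in the same order. Without the dimmest 25% of genes, which leaves fewer genes to test, 427 genes fell on agar, 301 and 306 had a lower effect than in SD and SG, 277 were higher in SLAD liquid than in SD liquid, and 13 higher on SLAD agar than on SD agar. Pairing by replicate letter was not seen, though 3 arrays a group are too few to exclude it. Deviations of same-lettered agar and liquid arrays correlated at r = 0.09, 0.07 and 0.02 over genes. Between arrays of other letters r ran from -0.09 to 0.07. With the letter as a block the counts were 613 and 697 again. Genes near 2-fold lost their call, with the same direction, when 1 array was left out: NRG1, GPA2, SAM3, CBF1, URE2, SIS1, CRC1, NOP4, EBP2 (0.88 without liquid array B), PRM1 (0.87 without agar array B), FUS1, STE6, LYS9 and ITR2. Quantile normalization ended the calls of NRG1, URE2, SPG1, FUS1 (-0.84) and STE6, and median centring that of FUS1. Calls gained upward in lists with none or 1 riser were DIG2, TYS1, SPS4 and ERG8 under quantile normalization (1.07 for DIG2, 1.10 for TYS1) and without liquid array A (1.24, 1.04, 1.06 and 1.01), DIG2 and TYS1 also without agar array A, and the histone gene HTA2 with averaged probe sets (1.11). Of the 311 genes named, 225 were left after the dim filter, with the same call. List medians moved by at most 0.14 under quantile normalization and by up to 1.20 under the dim filter, where 1 changed sign.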

Other observations

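Mitochondrial genes beyond the named ribosomal proteins were also higher on SLAD agar, in 3 lists chosen after their values were seen. Of 11 RSM proteins of the small mitochondrial subunit 10 rose (median 1.35), with RSM27 at 2.04 ± 0.18. Of 18 mitochondrial translation factors and tRNA synthetases 8 rose and none fell (median 0.90), led by the initiation factor IFM1, from 6.20 ± 0.20 in liquid to 8.86 ± 0.01 on agar, and the ribosome recycling factor RRF1 (2.28 ± 0.18), while the synthetase MSM1 did not pass the test (0.06 ± 0.08). Of 27 genes of mitochondrial protein import 10 rose and none fell (median 0.63). TIM9, a chaperone between the membranes, was at 12.99, 13.01 and 13.06 on agar and 10.38, 9.93 and 9.94 in liquid (2.94 ± 0.17), and the pore TOM40 was 0.48 ± 0.08 higher.

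In a set of 18 enzymes made by 2 genes, picked after their values were seen, 1 gene of the pair was called in 15, each time lower on agar. Both genes were called for cytochrome c (CYC1 and CYC7, in opposite directions) and glycogen synthase (GSY1 and GSY2, both lower), and neither for pyruvate kinase. Transketolase TKL2 fell by 5.52 ± 0.31 and TKL1 changed by -0.03 ± 0.04, transaldolase NQM1 fell by 3.54 ± 0.24 and TAL1 was 0.28 ± 0.04 higher, and the phosphogluconate dehydrogenase GND2 fell by 3.44 ± 0.22 and GND1 was 0.64 ± 0.04 higher. The proton pump PMA2 fell by 3.35 ± 0.21 and PMA1 changed by -0.08 ± 0.06. The Ran GTPase GSP2 went from 13.16 ± 0.04 in liquid to 8.81 ± 0.15 on agar and GSP1 from 14.71 ± 0.04 to 14.86 ± 0.01. RNR3, a large subunit of ribonucleotide reductase, fell by 3.76 ± 0.20 and RNR1 was 0.57 ± 0.15 higher. TKL1, TAL1, GND1, PMA1 and GSP1 lay near the top of the signal range, where changes are compressed, so an equal change at both genes of a pair was not tested by these values. Of the 499 tested genes without a standard name 34 were called higher and 96 lower on SLAD agar. Among all genes tested 11.2% were called higher and 12.8% lower.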
